A study of Drosophila melanogaster with 12 samples.

Results

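The genes described here are 36 named protein-coding genes of chromosome 4, the small dot chromosome of Drosophila melanogaster. They were chosen by their chromosome and matched by FlyBase identifier, so no measured value entered the choice. Of the 36, 34 were found in the count table, which lists 14869 genes and 79 genes of chromosome 4 in all. Mitf and dati were not matched. Transcripts were measured by RNA-seq in wing discs, the larval epithelia that give rise to the wing and the notum, with 3 libraries from independent RNA preparations for each of 4 genotypes.

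The transgenic genotypes were EGFP::ASH1 WT (ASH1 WT below), EGFP::ASH1DBAH (ΔBAH), which lacks the BAH domain, and EGFP::ASH1DBAH mutAT1 (ΔBAH mutAT1), which in addition has a mutated first AT hook. All carried w[1118], the mutant alleles ash1[10]/ash1[22] and a transgene of the form P{pTub - EGFP::ASH1, w+}. The wild type was w[1118] alone, and all larvae were raised at 25 °C and dissected in the third instar. The transgenes were driven by the alpha-tubulin promoter and are thus expressed broadly. The ash1[10] product is a protein with a point mutation in the SET domain, so the discs could still hold endogenous ASH1. Wild type differed from every transgenic line in the ash1 alleles, the transgene and the stock, and these cannot be told apart in a comparison with wild type.

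Most of chromosome 4 is packaged as heterochromatin, with heterochromatin protein 1 and methylated histone H3 lysine 9, yet its genes are transcribed and many are needed for development. A protein specific to this chromosome, POF, binds its active genes. ASH1 is a Trithorax group protein that methylates histone H3 at lysine 36 and opposes silencing by Polycomb group proteins. The member pho encodes Pleiohomeotic, a DNA-binding protein of the Polycomb group. The comparisons ask whether genes in this chromatin were expressed differently when ASH1 was supplied from a transgene, and when that transgene lacked the BAH domain or an intact AT hook.

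The annotation placed the members among long, repeat-rich genes. In BDGP6 the 34 genes had a median of 5.14 kb of exon sequence over 11.4 kb, in 8.5 exon blocks, and 29 of them (85.3%) contained an annotated transposable element, which took up a median of 11.4% of the gene. The 12474 protein-coding genes of the other arms had a median of 1.72 kb of exon over 2.14 kb in 3 blocks, and 740 of them (5.93%) contained an element. Chromosome 4 genes outside the list resembled the members, with a median of 3.71 kb of exon and elements in 82.5%.

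Levels were compared between genes as RPKM, which scale counts to exon length and library size. In wild type, 25 of the 34 members reached a mean of 1 RPKM and 22 reached 10 RPKM. The highest means over the 12 libraries belonged to Arf102F, a small GTPase of the secretory pathway, at 109 RPKM, gw, the GW182 protein of microRNA silencing, at 106 RPKM, and Crk, an adaptor of receptor signalling, at 101 RPKM. Their ranges over libraries, 67.5 to 146, 64.4 to 144 and 78.9 to 119 RPKM, overlapped widely, so the order of these 3 is not resolved. They were followed by the ankyrin gene Ank, the repair protein gene Rad23 and pho, at 88.3, 87.6 and 79.8 RPKM, whose ranges overlapped as well. The receptor genes Eph and PlexA averaged 58.6 and 44.0 RPKM, the Wingless coactivator lgs 40.7 RPKM, and the TCF factor pan, through which Wingless acts on its targets, 6.68 RPKM.

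**Figure D1:**
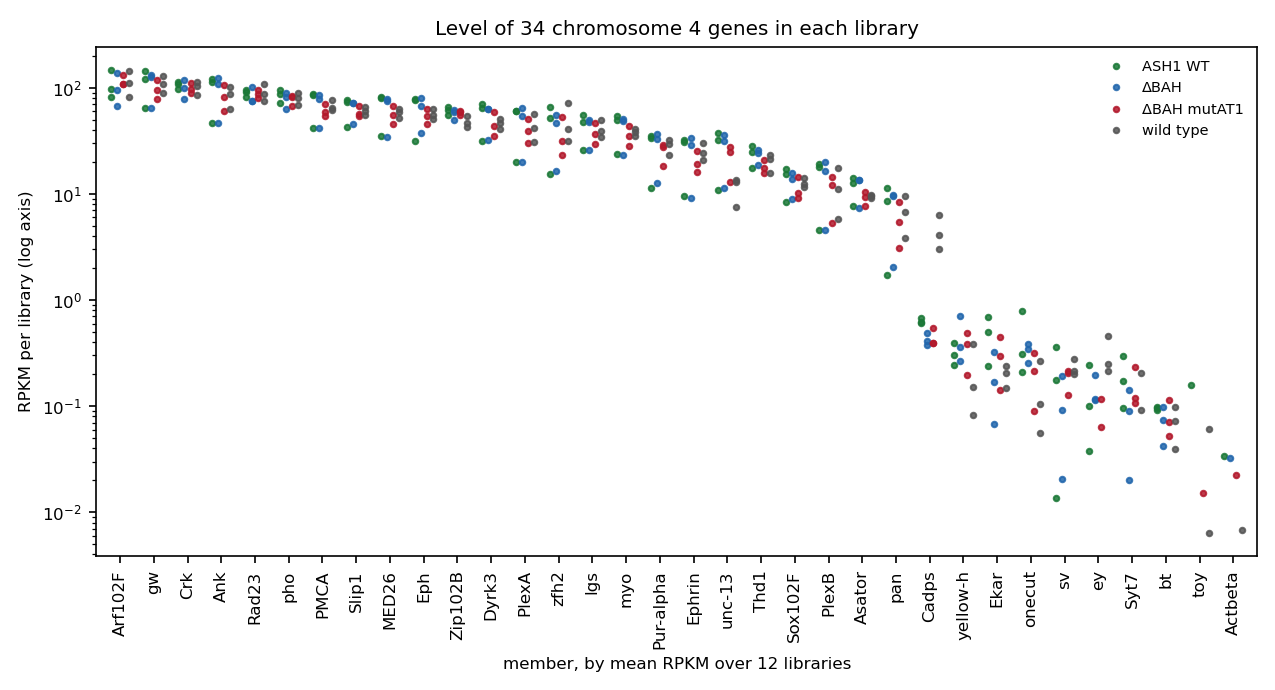
RPKM of the 34 members found, on a log axis, with a point for each library (3 per genotype) and members ordered by mean RPKM over 12 libraries; libraries at 0 are not drawn. The members from Arf102F to pan form a continuous range between 109 and 6.68 RPKM on average, the last 9 lie below 1 RPKM, and Cadps alone has its wild-type points separated from all others.

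The lower end of the order held genes of other organs. The Pax6 eye selector ey averaged 0.308 ± 0.130 RPKM in wild type (SD, n = 3), and the related Pax6 gene toy had at most 10 counts in any library. The Pax factor sv, the cut-homeodomain factor onecut, the kainate-type glutamate receptor Ekar, the synaptotagmin Syt7, the titin-family gene bt and yellow-h all averaged below 1 RPKM over the libraries. Actbeta, an activin ligand, never exceeded 3 counts. Because of their low counts toy and Actbeta were not tested, which left 32 members in the fits. Wing-disc markers were abundant in every library (7 genes found, 1130 to 1769 CPM summed in ASH1 WT and 1387 to 1759 CPM in wild type), and of the 4 eye-disc markers eya had 30.2 to 44.4 CPM and so 15.4 to 22.9 CPM, while ato reached at most 1.86 CPM and gl at most 0.49 CPM. CPM are counts scaled to library size only.

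With genotype as the only term, Cadps was the only member called in any comparison under the quasi-likelihood F test of edgeR, where a gene is called at a Benjamini-Hochberg adjusted p below 0.05 over 8346 genes. That is 1 of 32 members lower and 0 higher in each line against wild type, where 1.92% of all genes were called for ASH1 WT, 1.93% for ΔBAH and 2.17% for ΔBAH mutAT1. For the mean of the 3 lines against wild type it was again 1 of 32 members, with 3.15% of all genes called. A count of 1 among 32 is near these backgrounds. DESeq2 and limma-voom called Cadps and no other member. An unadjusted p below 0.05 in edgeR was found for 4, 2 and 2 members in ASH1 WT, ΔBAH and ΔBAH mutAT1, Cadps included. The shares of all genes below that value were 8.75%, 8.84% and 8.08% in the same order.

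Cadps encodes the calcium-dependent activator protein for secretion, which primes dense-core vesicles for release. It lies on chromosome 4 of BDGP6 from 1230837 to 1271759 on the plus strand, spans 26 exon blocks and consists of transposable element sequence over 35.8% of its length. It had 3.55, 3.87 and 3.52 CPM in ASH1 WT, 2.79, 2.16 and 2.35 CPM in ΔBAH, and 2.27, 3.11 and 2.27 CPM in ΔBAH mutAT1, against 17.3, 23.8 and 36.5 CPM in wild type. Every transgenic library lay below every wild-type library, and the wild-type libraries rested on 592 to 699 counts each.

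The log2 fold change of Cadps over wild type was −2.82 in ASH1 WT (SE 0.29, adjusted p = 0.000285), −3.40 in ΔBAH (SE 0.29, adjusted p = 0.000107) and −3.33 in ΔBAH mutAT1 (SE 0.29, adjusted p = 0.000128), all from edgeR's quasi-likelihood test. These are levels 7.06, 10.5 and 10.1 times lower. Between the lines the differences were smaller. The log2 fold change was −0.58 in ΔBAH over ASH1 WT (SE 0.28, unadjusted p = 0.0643 in edgeR's quasi-likelihood test) and 0.07 in ΔBAH mutAT1 over ΔBAH (SE 0.28), and neither passed the adjusted threshold. The drop thus accompanied all 3 transgenic lines, the full-length protein included.

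The neighbours of Cadps did not share its drop. These neighbours were looked up after its values were known. Dyrk3, a kinase gene and itself a member, is transcribed away from Cadps on the minus strand, and 123 bp separate them in BDGP6. Its log2 fold change was 0.26 ± 0.34 for ASH1 WT, 0.19 ± 0.34 for ΔBAH and −0.01 ± 0.33 for ΔBAH mutAT1 (± SE). The next gene of the table on that side, PIP4K, stood at −0.04 ± 0.12 for the mean of the lines. Cadps had no further gene of the table beyond it on the chromosome.

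Because Cadps is used in neurons, the neuronal markers were set beside it. Their sum over 7 of 8 listed genes was 36.4 to 101 CPM in ASH1 WT, 31.8 to 111 CPM in ΔBAH and 31.5 to 98.1 CPM in ΔBAH mutAT1, against 36.1 to 113 CPM in wild type. These sums overlapped, but they were made up mostly of elav and Syx1A, and the markers at low levels went in different directions. The active zone gene brp lay below wild type in ΔBAH (0.067 to 0.241 CPM) and ΔBAH mutAT1 (0.026 to 0.298 CPM), and overlapped with it in ASH1 WT (0.062 to 0.398 CPM), against 0.378 to 0.862 CPM in wild type. The RNA-binding protein gene fne had 0.105 to 0.511 CPM in ASH1 WT, 0 to 1.41 CPM in ΔBAH and 0.157 to 0.716 CPM in ΔBAH mutAT1, against 0.714 to 1.60 CPM in wild type. The synaptic vesicle genes nSyb and Syt1 lay above wild type in ASH1 WT (0.615 to 1.23 CPM and 1.59 to 3.63 CPM, against 0.246 to 0.476 CPM and 0.431 to 1.41 CPM). Syt1 also lay above it in ΔBAH (1.47 to 2.04 CPM). nSyb in ΔBAH and both genes in ΔBAH mutAT1 overlapped with wild type. The complexin gene cpx was at 0 in 6 libraries. The part of neurons in the drop of Cadps was not tested. In bulk discs, fewer cells of a type and less RNA per cell cannot be told apart. Summed fat body markers were 16.7 to 265 CPM in the transgenic libraries, against 2973, 17.5 and 377 CPM in wild type. Without wild-type replicate 1 the log2 fold change of Cadps was −3.02 for ASH1 WT, −3.60 for ΔBAH and −3.55 for ΔBAH mutAT1.

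unc-13 stood higher on average in the transgenic lines, without passing the test across genotypes. It encodes the vesicle priming factor Unc-13, lies from 867824 to 912331 on the minus strand of chromosome 4, and has 22.6 kb of exon sequence in 35 blocks, which overlap 3 annotated noncoding RNAs, so counts without strand could mix them. It had 246, 838 and 725 CPM in ASH1 WT, 254, 809 and 719 CPM in ΔBAH, and 558, 292 and 629 CPM in ΔBAH mutAT1, against 306, 170 and 293 CPM in wild type. In each transgenic line 1 library fell within the wild-type range and the others lay above it.

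The log2 fold change of unc-13 over wild type was 1.23 (SE 0.52, adjusted p = 0.491) in ASH1 WT, 1.21 (SE 0.52, adjusted p = 0.510) in ΔBAH and 0.94 (SE 0.52, adjusted p = 0.852) in ΔBAH mutAT1 in edgeR's quasi-likelihood test, and none was called. The low transgenic libraries, replicate 1 of ASH1 WT and ΔBAH and replicate 2 of ΔBAH mutAT1, have library numbers next to that of wild-type replicate 2, which was the lowest wild-type library. The labels number the libraries in 3 consecutive blocks. Block 1 holds replicate 1 of ΔBAH mutAT1 and of wild type, block 2 the libraries just named, and block 3 the remaining 6. That the blocks are sequencing runs is an inference.

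Within blocks unc-13 was higher in 9 of 9 transgenic libraries than in the wild-type library of the same block, by 0.54 to 1.51 on the log2 scale. With the block as a covariate its log2 fold change was 1.01 (SE 0.17, adjusted p = 0.00454) in ASH1 WT, 1.00 (SE 0.17, adjusted p = 0.00469) in ΔBAH and 0.90 (SE 0.16, adjusted p = 0.00411) in ΔBAH mutAT1. The standard error was lower than without the covariate, and unc-13 was called in each line under edgeR's quasi-likelihood test with this covariate. Without the covariate, the nearest neighbours of unc-13, Gyf and eIF4G1, stood at 0.06 ± 0.24 and −0.07 ± 0.39 for the mean of the lines (± SE). These neighbour values thus come from another fit than the values of unc-13 just given.

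**Figure D2:**
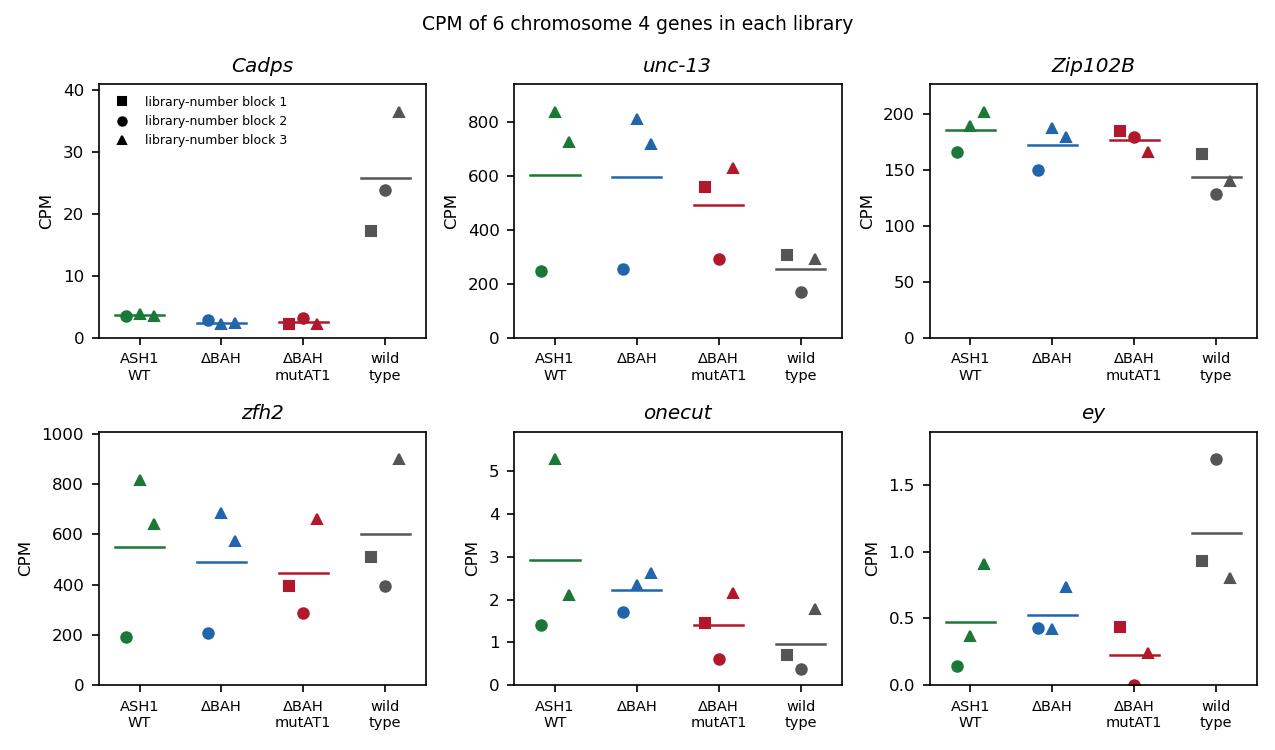
CPM of 6 members in each library, with 3 libraries per genotype, the mean as a line and the block of library numbers as the symbol. Cadps lies between 2.16 and 3.87 CPM in all transgenic libraries and between 17.3 and 36.5 CPM in wild type; for unc-13 and zfh2 the circles of block 2 lie lowest in every genotype.

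Further calls with this covariate concerned Zip102B and zfh2. Zip102B, of the ZIP family of zinc transporters, had 167, 189 and 202 CPM in ASH1 WT, 150.1, 188 and 180 CPM in ΔBAH, and 185, 180.0 and 167 CPM in ΔBAH mutAT1, against 164, 129 and 140.0 CPM in wild type. The ranges of ASH1 WT and of ΔBAH mutAT1 did not overlap with wild type, and that of ΔBAH did. Its log2 fold change with the covariate was 0.41 (SE 0.10, adjusted p = 0.0326) in ASH1 WT, 0.30 (SE 0.10, adjusted p = 0.112) in ΔBAH and 0.31 (SE 0.09, adjusted p = 0.0839) in ΔBAH mutAT1 in edgeR's quasi-likelihood test. Without the covariate it was 0.37, 0.26 and 0.30 and not called.

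zfh2 encodes a zinc finger homeodomain factor of the wing hinge. It had 190, 818 and 641 CPM in ASH1 WT, 205.5, 686 and 574 CPM in ΔBAH, and 393, 288 and 661 CPM in ΔBAH mutAT1, against 509, 393 and 901 CPM in wild type. The ranges overlapped in every line, but each transgenic library lay below the wild-type library of its block, by 0.14 to 1.05 on the log2 scale. With the covariate its log2 fold change was −0.59 (SE 0.17, adjusted p = 0.0549) in ASH1 WT, −0.71 (SE 0.17, adjusted p = 0.0276) in ΔBAH and −0.42 (SE 0.15, adjusted p = 0.160) in ΔBAH mutAT1 in edgeR's quasi-likelihood test. Its exons overlap those of Thd1 on the opposite strand, so its counts are uncertain. Without the covariate its log2 fold change was −0.13 for ASH1 WT, −0.30 for ΔBAH and −0.43 for ΔBAH mutAT1, and the direction in ASH1 WT and ΔBAH rested on single libraries. Without replicate 1 of the line it was 0.28 in ASH1 WT and 0.09 in ΔBAH. Without wild-type replicate 3 it was 0.28 in ASH1 WT, 0.11 in ΔBAH and 0.13 for the mean of the lines.

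With the covariate, 3 of 32 members were called in ASH1 WT (Cadps, unc-13 and Zip102B), where 7.30% of all genes were called. In ΔBAH 3 of 32 were called (Cadps, unc-13 and zfh2) with a background of 6.25%, and in ΔBAH mutAT1 2 of 32 (Cadps and unc-13) with a background of 6.45%. For the mean of the lines all 4 of these members were called, against 11.1% of all genes. Read without any model, 6 of 32 members had all 9 transgenic libraries on 1 side of the wild-type library of their block, against 20.0% of all genes. Cadps and zfh2 were below it, and unc-13, Zip102B, onecut and yellow-h were above it. These shares were all near those of the genome.

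**Figure D3:**
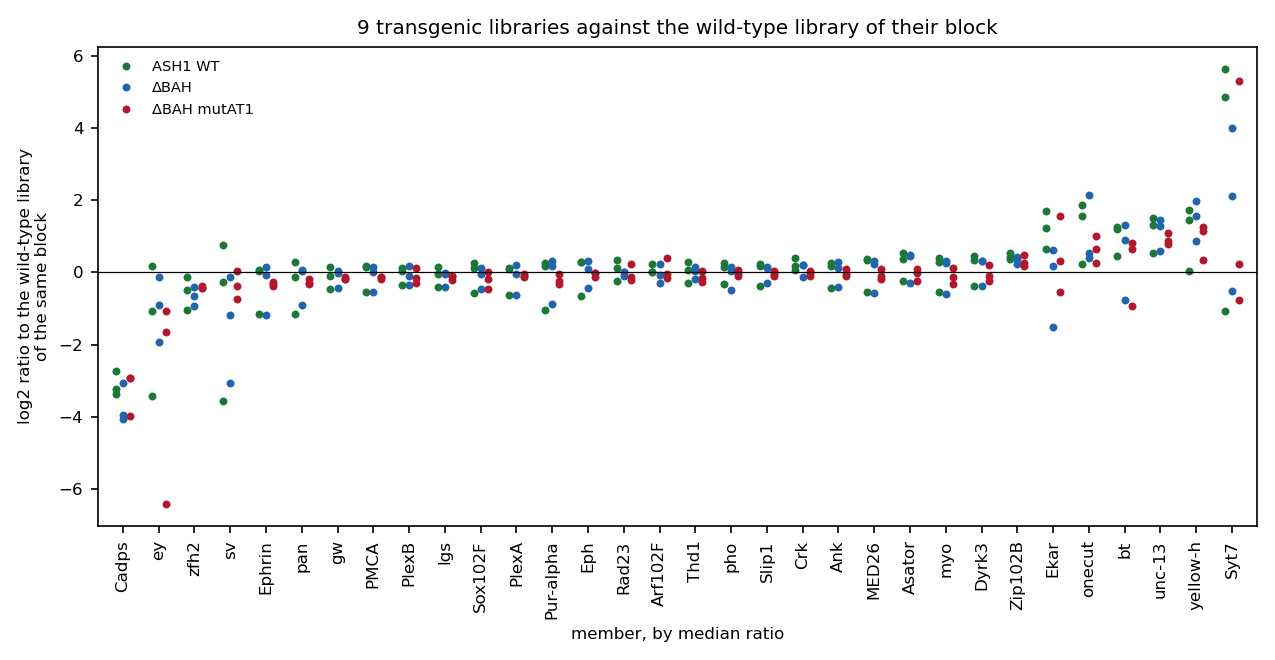
Log2 ratio of each of the 9 transgenic libraries to the wild-type library of the same block, for the 32 tested members ordered by median ratio. All points of Cadps lie between −4.06 and −2.74 and those of unc-13 between 0.54 and 1.51, while most members straddle 0; the widest ratios, of ey and Syt7, include libraries without a count.

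Compared over the whole genotype rather than within blocks, few members separated. In ASH1 WT 2 members (Zip102B above, Cadps below) had CPM ranges that did not overlap with wild type, where 13.6% of all genes did so. In ΔBAH there were 3 (ey, sv and Cadps, all below) against 13.6% of all genes, and in ΔBAH mutAT1 3 (Zip102B above, ey and Cadps below) against 14.0%.

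Among the transcription and RNA regulators 11 of 14 members were tested, and with genotype as the only term none was called in any of the 6 comparisons by edgeR. zfh2 was called with the block covariate, as described above. The log2 fold change of pho was 0.09 ± 0.18 for ASH1 WT, −0.03 ± 0.18 for ΔBAH and −0.03 ± 0.18 for ΔBAH mutAT1 (± SE), and that of gw was 0.01 ± 0.33, −0.01 ± 0.33 and −0.17 ± 0.33 in the same order of lines. The Wingless coactivator lgs, the Mediator subunit MED26 and Sox102F ranged between −0.19 and 0.19 over the 3 lines.

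ey was low in every library. It had 4, 6 and 16 counts in ASH1 WT, 12, 7 and 11 counts in ΔBAH, and 16, 0 and 4 counts in ΔBAH mutAT1, against 37, 50 and 13 counts in wild type. In CPM these were 0.141, 0.369 and 0.909 in ASH1 WT, 0.429, 0.421 and 0.737 in ΔBAH, and 0.438, 0 and 0.239 in ΔBAH mutAT1, against 0.933, 1.70 and 0.800 in wild type. The ranges of ΔBAH and ΔBAH mutAT1 lay below that of wild type, and that of ASH1 WT overlapped with it. The log2 fold change in ΔBAH mutAT1 was −2.34 (SE 0.97, adjusted p = 0.504) and that of the mean of the lines −1.59 (SE 0.70, adjusted p = 0.431) in edgeR's quasi-likelihood test, and neither was called. Leaving out 1 library moved the value in ΔBAH mutAT1 to −3.56 without its replicate 1 and to −1.70 without its replicate 2. The summed eye-disc markers were 48.4 to 65.8 CPM in ΔBAH mutAT1 and 51.3 to 64.4 CPM in wild type.

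onecut had 1.40, 5.29 and 2.10 CPM in ASH1 WT, 1.72, 2.35 and 2.61 CPM in ΔBAH, and 1.45, 0.602 and 2.15 CPM in ΔBAH mutAT1, against 0.706, 0.374 and 1.79 CPM in wild type. The ranges overlapped in every line. Its log2 fold change in ASH1 WT was 1.65 (SE 0.68, adjusted p = 0.471 in edgeR's quasi-likelihood test) and it was not called. ASH1 WT replicate 2 was the highest library, and without it the value was 0.91, while it was 2.41 without wild-type replicate 3.

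Of the signalling members, 10 of 11 were tested and none was called by edgeR in any comparison. The ephrin receptor gene Eph and its ligand gene Ephrin stood at 0.15 ± 0.35 and −0.06 ± 0.49 in ASH1 WT, at 0.12 ± 0.35 and −0.07 ± 0.49 in ΔBAH, and at −0.05 ± 0.35 and −0.32 ± 0.50 in ΔBAH mutAT1 (log2 fold change over wild type ± SE). The semaphorin receptor genes PlexA and PlexB, the TGF-beta ligand gene myo and the kinase gene Asator lay between −0.12 and 0.27 over the 3 lines. Crk, 1 of the most abundant members, had 146, 131 and 153 CPM in ASH1 WT, 161, 107 and 135 CPM in ΔBAH, and 152, 131 and 120 CPM in ΔBAH mutAT1, against 154, 139 and 116 CPM in wild type. These ranges overlapped, and its log2 fold changes of 0.07, −0.02 and −0.03 had standard errors of 0.18 (adjusted p = 1.00 in each line by edgeR's quasi-likelihood test).

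Of the remaining members, Arf102F had 136, 76.6 and 90.6 CPM in ASH1 WT, 128, 62.8 and 89.4 CPM in ΔBAH, and 99.8, 122 and 102 CPM in ΔBAH mutAT1, against 104, 135.0 and 76.6 CPM in wild type, with overlapping ranges. Its log2 fold changes over wild type were −0.06, −0.17 and 0.04 for these lines (SE 0.30, adjusted p = 1.00 in each by edgeR's quasi-likelihood test). gw had 396, 884 and 739 CPM in ASH1 WT, 399, 814 and 777 CPM in ΔBAH, and 581, 482 and 720 CPM in ΔBAH mutAT1, against 665, 544 and 793 CPM in wild type, again overlapping. Both repair genes, both cytoskeletal genes and the calcium pump gene PMCA lay between −0.14 and 0.42 in all 3 lines, and none was called by edgeR. yellow-h, of the family named after the pigmentation gene yellow, had 2 to 30 counts per library and log2 fold changes of 0.58 ± 0.64, 1.10 ± 0.63 and 0.77 ± 0.63 (± SE).

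**Figure D4:**
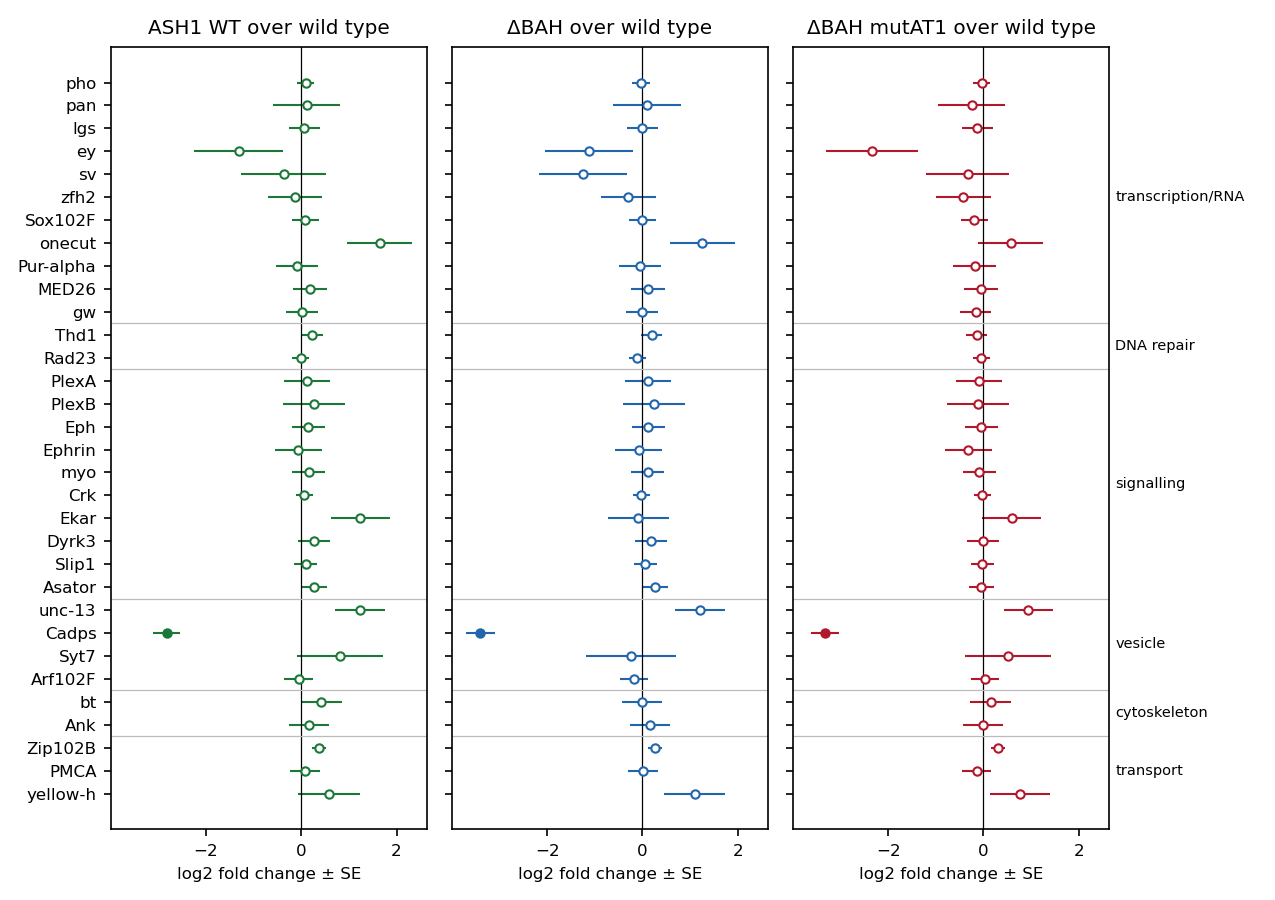
Log2 fold change over wild type of the 32 tested members in ASH1 WT, ΔBAH and ΔBAH mutAT1 (n = 3 libraries per genotype), grouped by role; bars are ± 1 SE and filled points have an adjusted p below 0.05. In this fit without the block covariate only Cadps is filled, at −2.82, −3.40 and −3.33; the wide bars belong to members with few counts or long exons.

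The members' median difference from wild type was small, and in ASH1 WT and ΔBAH its sign changed with the block covariate. With genotype as the only term, the median log2 fold change of the members over wild type was 0.12 for ASH1 WT, 0.01 for ΔBAH and −0.05 for ΔBAH mutAT1, while the medians of all tested genes were 0.01, 0.00 and −0.00. The SD of a library's member median within a genotype was 0.44, a value that includes the differences between blocks. With the block covariate the members' medians were −0.06, −0.11 and −0.07 in the same order of lines, with 19, 24 and 24 of 32 members below 0, and the medians of all tested genes were −0.02, −0.02 and −0.00. Of the 24 tested members other than Cadps with a mean of at least 1 RPKM, 23 lay within 0.5 of 0 in each line without the covariate, and unc-13 was the exception. With the covariate zfh2 also lay outside, at −0.59 in ASH1 WT and −0.71 in ΔBAH, and so did Ephrin, at −0.503 in ΔBAH. Without the covariate the 7 members below 1 RPKM ranged from −2.34 to 1.65 with standard errors of 0.42 to 0.97.

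The domain mutations were compared with the transgene they were built on. In ΔBAH against ASH1 WT edgeR called 0 of 32 members and 0% of all genes. An unadjusted p below 0.05 was found in 0 of these members and in 1.23% of all genes. DESeq2, limma-voom and the fit with the block covariate also called 0 members, and DESeq2 and the covariate fit each found 1 at an unadjusted p below 0.05. The 24 abundant members lay between −0.17 and 0.03 on the log2 scale, with a median of −0.07 over all 32 members. Leaving out 1 library at a time this median ranged from −0.34 without ASH1 WT replicate 1 to 0.19 without ΔBAH replicate 1, and with the block covariate it was −0.06. The smallest p belonged to Ekar, with 0.501, 0.962 and 0.201 CPM in ΔBAH against 0.703, 1.48 and 2.05 CPM in ASH1 WT. Its ranges overlapped, and its log2 fold change was −1.32 (SE 0.64, unadjusted p = 0.0627, adjusted p = 1.00 in edgeR's quasi-likelihood test).

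In ΔBAH mutAT1 against ΔBAH edgeR called 0 of 32 members and 0.0479% of all genes. An unadjusted p below 0.05 was found in 0 of these members and in 1.95% of all genes. DESeq2, limma-voom and the block covariate likewise called 0 members. The abundant members lay between −0.37 and 0.21, with a median of −0.16 over all 32. These genotypes are spread unequally over the blocks, and with the block covariate the median was 0.05 with 21 of 32 members above 0. Leaving out 1 library at a time it ranged from −0.45 without ΔBAH replicate 1 to 0.02 without ΔBAH replicate 2. The smallest p belonged to Thd1, the gene of the thymine DNA glycosylase, whose exons overlap those of zfh2. It had 208, 231 and 276 CPM in ΔBAH mutAT1 against 245, 340 and 318 CPM in ΔBAH. The ranges overlapped, and the log2 fold change was −0.34 (SE 0.23, unadjusted p = 0.167, adjusted p = 1.00 in edgeR's quasi-likelihood test).

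Libraries of the same genotype differed between blocks. The members' median difference between block 2 and block 3 was −1.11 on the log2 scale in ASH1 WT, −0.94 in ΔBAH, −0.57 in ΔBAH mutAT1 and −0.30 in wild type, and 27, 25, 22 and 24 of 32 members were lower in block 2. All tested protein-coding genes had medians of 0.09, 0.11, 0.10 and 0.12. The 37 tested chromosome 4 genes outside the list had medians of −0.57, −0.36, −0.19 and −0.005, and 25, 23, 25 and 19 of them were lower in block 2. Together the 34 members took 0.378% of the scaled counts in ASH1 WT replicate 1 of block 2, against 0.837% and 0.782% in replicates 2 and 3 of block 3. The wild-type libraries held 0.505% in block 2 and 0.699% in block 3.

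The difference was larger for members with long exons. Those with at least 4 kb of exon had medians of −1.22 in ASH1 WT, −1.002 in ΔBAH, −0.65 in ΔBAH mutAT1 and −0.54 in wild type, and other genes of that length had −0.83, −0.82, −0.58 and −0.52. The 12 members under 4 kb had medians of −0.58, −0.07, 0.06 and 0.22, where other genes of that length had 0.31, 0.33, 0.22 and 0.23. In ASH1 WT 8 of these 12 members were below 0 as well. Across the 32 members Spearman's rho with exon length was −0.40, −0.61, −0.41 and −0.58. Across all tested protein-coding genes it was −0.79, −0.76, −0.61 and −0.64. These correlations are across genes that share the same libraries, so the genes are not independent. pan, with 14.4 kb of exon, had 24.6 CPM in ASH1 WT replicate 1 against 165 and 124 CPM in replicates 2 and 3. A model with genotype alone had a common coefficient of variation between replicates of 32.0%, and 14.4% with the block added.

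**Figure D5:**
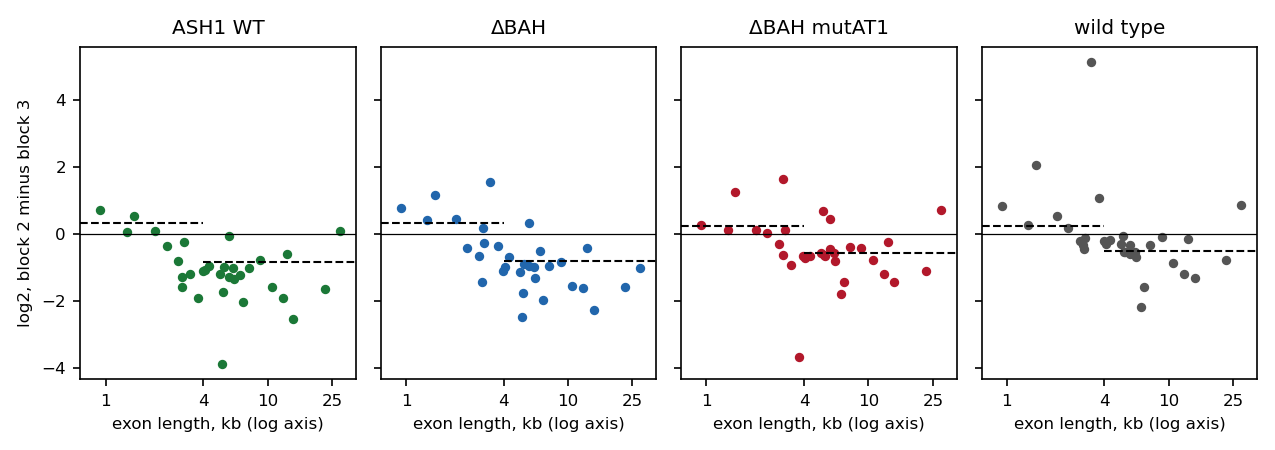
Log2 difference between block 2 and block 3 libraries of the same genotype against exon length (log axis) for the 32 tested members; dashed lines are the medians of other protein-coding genes with under and with at least 4 kb of exon. Of the 20 members of at least 4 kb, 19 lie below 0 in ASH1 WT, 19 in ΔBAH, 17 in ΔBAH mutAT1 and 19 in wild type, and the longest, bt, lies above 0 in ASH1 WT, ΔBAH mutAT1 and wild type.

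ash1 itself, on chromosome 3, was measured at 234 to 534 CPM in ASH1 WT, 155 to 448 CPM in ΔBAH and 182 to 417 CPM in ΔBAH mutAT1, against 85.6 to 112 CPM in wild type. The transgenes carry ASH1 cDNA, so these counts do not separate transgene transcript from that of the endogenous ash1 alleles. Total counts lay between 15083960 and 39180697 per library.

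Chromosome 4 genes outside the list behaved alike in number. Of 45 such genes 37 were tested. The share of all genes called by edgeR was 1.92% for ASH1 WT, 1.93% for ΔBAH and 2.17% for ΔBAH mutAT1. In each line 1 of the 37 was called. This was fuss, a gene of the SKI/SNO family, with 24, 15 and 13 counts in ASH1 WT, 61, 16 and 12 counts in ΔBAH, and 21, 18 and 8 counts in ΔBAH mutAT1, against 3, 0 and 0 counts in wild type. Against a floor of 3 counts in each wild-type library it was at least 6.91-fold higher in ASH1 WT, at least 10.9-fold in ΔBAH and at least 4.21-fold in ΔBAH mutAT1 (adjusted p = 0.0193, 0.00638 and 0.0398 in edgeR's quasi-likelihood test). With only the libraries compared in the fit none of these calls was kept (adjusted p = 0.0727, 0.0674 and 0.120). Leaving out 1 library the call was lost in ASH1 WT without its replicate 2 or 3 or wild-type replicate 2 or 3 (adjusted p up to 0.0885), and in ΔBAH mutAT1 without any of its own replicates or wild-type replicate 2 or 3 (up to 0.161). For the mean of the lines apolpp, a lipid carrier of the fat body, was called as lower (log2 fold change −3.46, SE 0.78, adjusted p = 0.0370), and its wild-type maximum of 154 CPM came from replicate 1, which had the high fat body markers. Without that library its value was −0.83 (adjusted p = 1.00), and its call was also lost with the block covariate (adjusted p = 0.110), the replicate block (0.124) and limma-voom (0.786).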

How the data were processed

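RNA-seq was analysed in wing discs of 4 genotypes with 3 libraries each. According to the methods and the submitters' processing notes, the authors sequenced single-end reads, aligned them to dm3 with TopHat 2.0.9 and counted them on Ensembl genes with HTSeq 0.5.4p3. The deposited table holds these counts without normalization. Strandedness and the handling of multiply mapped reads are not given in the sources used here. Symbols, positions and exon lengths came from the BDGP6 annotation, which covers 13524 of 14869 identifiers. No sequence was used.

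Counts were fitted in R 4.3.3 with edgeR 4.0.16 (filterByExpr with a minimum count of 10, TMM factors, 1 coefficient per genotype, all 12 libraries, quasi-likelihood F tests, prior count 0.125), and p were adjusted by Benjamini and Hochberg over 8346 genes. The procedure was first tested on simulated counts. These were drawn without differences between blocks, so that test does not cover such differences. Log2 ratios within blocks used a prior count of 0.5, and total counts of 15083960 to 39180697 set the counting precision. Differences of Cadps, unc-13 and the other named members were recomputed with DESeq2 1.42.0, limma-voom 3.58.1 on all genes, RLE factors, no filter, a prior count of 2, a replicate block, the library-number block, only the libraries compared, and each library left out.

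Libraries of equal replicate number had correlated deviations in ΔBAH mutAT1 with wild type (0.388, 0.335 and 0.363) and in ΔBAH with ASH1 WT (0.739, 0.496 and 0.395). They fall in the same block there. Replicate 3 of ASH1 WT and of wild type, also of 1 block, correlated at 0.338. Equal replicate numbers in different blocks gave −0.363 to 0.0874. The labels state no pairing, and whether replicate numbers pair libraries beyond their block was not tested.

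Named were members with an adjusted p below 0.05, those with an absolute log2 fold change above 1 and an unadjusted p below 0.05, the smallest p per comparison, the 3 highest by RPKM and members at or under 3 counts. Zip102B and zfh2 were added after their block-adjusted values were seen. The members were chosen by their chromosome, without use of a measured value. Earlier results of these data were known when the members, the gene lists and the tests were chosen.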

Additional observations from a re-analysis of the deposited data

How the results depend on the processing

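Of 525 recomputed values over the members' counts, medians and named genes, 506 were classed as unchanged. For a named gene this meant the same direction and the same side of the threshold. For a count of called members it meant an equal or similar count. For a member median it meant a shift below 0.44, the SD of a library's member median. Medians that changed sign are thus among the 506. Cadps was called in each line and in their mean under every alternative run, with adjusted p up to 0.0112. The number of members called changed only with the library-number block as a covariate, to 3 in ASH1 WT, 3 in ΔBAH, 2 in ΔBAH mutAT1 and 4 for the mean of the lines, from 1 each. The covariate lowers the residual spread. The replicate block, where numbers pair the libraries or not, left the members called at 1, 1, 1 and 1 against wild type and at 0 in ΔBAH over ASH1 WT and in ΔBAH mutAT1 over ΔBAH, and changed no call of a named member.

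Leaving out 1 library at a time, zfh2 against wild type ranged from −0.53 to 0.28 in ASH1 WT, from −0.63 to 0.11 in ΔBAH and from −0.52 to 0.13 for the mean of the lines, and Cadps in ΔBAH mutAT1 over ΔBAH from −0.10 to 0.16; the cause was not tested. Over the same omissions the member median ranged from −0.01 to 0.38 in ASH1 WT and from −0.13 to 0.31 in ΔBAH. For members under 1 RPKM standard errors against wild type reached 0.97 on the log2 scale with genotype as the only term. Changes of that size could thus go uncalled in this fit. How far depth or the spread between blocks set these errors was not tested.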

Other observations

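Genes of the pericentric heterochromatin share heterochromatin marks with chromosome 4. Of 21 listed genes 11 were tested, and edgeR called 1 of these 11 in each line, against 1 of 32 members. The share of all genes called was 1.92% for ASH1 WT, 1.93% for ΔBAH and 2.17% for ΔBAH mutAT1. The called gene was Snap25, which encodes a SNARE protein of synaptic vesicle fusion. Snap25 had 1.37, 0.492 and 1.25 CPM in ASH1 WT, 1.07, 1.26 and 1.21 CPM in ΔBAH, and 1.72, 1.47 and 0.597 CPM in ΔBAH mutAT1, against 6.08, 7.88 and 5.48 CPM in wild type. All 9 transgenic libraries lay below all wild-type libraries, as for Cadps. Its log2 fold changes were −2.62 (SE 0.45), −2.46 (SE 0.45) and −2.33 (SE 0.44), with adjusted p of 0.0131, 0.0172 and 0.0198 from edgeR's quasi-likelihood test in ASH1 WT, ΔBAH and ΔBAH mutAT1. Leaving out 1 library its call was lost in ASH1 WT without its replicate 3 or wild-type replicate 2 (adjusted p up to 0.0610), in ΔBAH without any of its own replicates or wild-type replicate 1 or 2 (up to 0.0827), and in ΔBAH mutAT1 without its replicate 2 or 3 or any wild-type replicate (up to 0.0863). The summed neuronal markers overlapped between these lines and wild type. Of the single markers brp lay below wild type in ΔBAH and ΔBAH mutAT1, at 0.067 to 0.241 CPM and 0.026 to 0.298 CPM against 0.378 to 0.862 CPM. fne lay below it in ASH1 WT, at 0.105 to 0.511 CPM against 0.714 to 1.60 CPM. nSyb and Syt1 lay above wild type in ASH1 WT, and Syt1 also in ΔBAH. The part of neurons in this drop was not tested.

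Of 15 tested genes for proteins of heterochromatin and chromosome 4, edgeR, DESeq2 and limma-voom called 0 in every comparison, and 0 had an unadjusted p below 0.05 in these fits. In edgeR 1.23% to 10.7% of all genes had such a p, depending on the comparison. With the library-number block as a covariate Su(var)3-3, the histone demethylase LSD1, and HP5 were called as lower in ASH1 WT. Both were also called as lower for the mean of the lines, and Su(var)3-3 in ΔBAH mutAT1. That was 2 of 15 in ASH1 WT, against 7.30% of all genes, and 2 of 15 for the mean of the lines, against 11.1%. In ΔBAH mutAT1 it was 1 of 15, against 6.45%.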
